A study of Homo sapiens with 60 samples.

Results

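The genes described here are 9 abundant mRNAs of the translation machinery, taken by name from the 42141 genes of a table in CPM (read counts scaled so that each library has the same total): the elongation factor genes *EEF1A1*, *EEF1B2*, *EEF1D*, *EEF1G* and *EEF2*, the initiation factor genes *EIF4A1* and *EIF4B*, the poly(A)-binding protein gene *PABPC1*, and *TPT1*, which encodes the translationally controlled tumor protein. They were chosen by their high CPM levels and with earlier results of these data known, so their levels are given as a description without a test, and the number of them that passed a test supports nothing about the set. All 9 passed the filter on low values. The cells were HEK293-EBNA1-6E, cells derived from human embryonic kidney that express the Epstein-Barr virus protein EBNA1. WT cells were compared with *ALG6-/-* cells, which lack the enzyme for the first glucose of the N-glycan precursor. The other lines also lack UGGT1 (*ALG6/UGGT1-/-*), UGGT2 (*ALG6/UGGT2-/-*) or both (*ALG6/UGGT1/UGGT2-/-*, the triple knockout), the enzymes that put a glucose back onto glycoproteins that have not folded. All 4 knockout lines thus lack ALG6, and only WT cells have it. Each line gave 3 biological replicates of poly(A) mRNA, grown for 48 hours, and each knockout line was made with CRISPR/Cas9 and grown from a single cell, so an effect of the clone and an effect of the genotype cannot be told apart.

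During elongation, eEF1A brings an aminoacyl-tRNA to the ribosome as a complex with GTP, the eEF1B complex made of the products of *EEF1B2*, *EEF1D* and *EEF1G* exchanges the spent GDP on eEF1A for GTP, and eEF2 then moves the ribosome to the next codon. eIF4A unwinds the 5' leader of an mRNA during initiation, eIF4B helps it, and PABPC1 binds the poly(A) tail and contacts the cap-binding complex. Many transcripts of this kind, though not all, are TOP mRNAs, named for the terminal oligopyrimidine tract. This tract is a cytosine at the first base followed by a run of pyrimidines. Through it the kinase complex mTORC1 and the protein LARP1 control the translation and stability of these mRNAs.

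The 5' ends are shown because the tract is what gives the group its name. Each line holds 30 bases around a start of transcription annotated by RefSeq (GRCh38.p14), 5' to 3', of which the first 14 lie before the start, and capitals mark the unbroken run of pyrimidines that begins with a cytosine at the start itself.

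EEF1A1: tcgccgtgaacgttCTTTTTCgcaacgggt
EEF1B2: cggtctcttcgggtCCTTTTTCCTCTCTTC
EEF2: ttgacgtcagcgttCTCTTCCgccgtcgtc
EIF4B: tgcctcatccgggtCTTTTgcgttctcttt
TPT1: gcggctgagtcggcCTTTTCCgcccgctcc
EEF1G: ctcccgggcggcttactttgcggcagcgcc
EIF4A1: ggcgggcactccgcCCTagtttctaaggat

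These windows lie at chr6:73521017-73521046 (minus strand) for *EEF1A1*, chr2:206159881-206159910 (plus strand) for *EEF1B2*, chr19:3985448-3985477 (minus strand) for *EEF2*, chr12:53006442-53006471 (plus strand) for *EIF4B*, chr13:45341168-45341197 (minus strand) for *TPT1*, chr11:62573876-62573905 (minus strand) for *EEF1G* and chr17:7572811-7572840 (plus strand) for *EIF4A1*. A run of at least 5 pyrimidines that begins with C at the annotated start was present in 5 of the 7 genes and missing from these letters in *EEF1G* and *EIF4A1*. The run was 16 bases in *EEF1B2*, where it reached the end of the window, 7 bases in *EEF1A1*, *EEF2* and *TPT1*, and 5 bases in *EIF4B*. Another start annotated upstream for *EEF1B2* had none. Counted by gene, such a run was found in 47 of 63 cytosolic ribosomal protein genes and in 1404 of all 27305 genes with an annotated start. Counted by start, 62.5% of the members' 8 starts carried it, 60.3% of the 78 starts of ribosomal protein genes and 4.07% of all 35116. Only the strand of the transcript was read, and a match describes the letters at an annotated start, not the start used in these cells. *EEF1D* and *PABPC1* are the other members.

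In the 15 libraries 1 CPM stood for 23.6 to 27.2 reads. *ALG6* mRNA was at 14.3 ± 1.48 CPM (SD, n = 3) in WT cells and between 1.14 and 4.67 CPM on average in the 4 lines edited in it. For *UGGT1* the level was 67.0 ± 20.8 CPM in WT and 24.9 ± 5.94 CPM in *ALG6/UGGT1-/-* libraries (adjusted p = 0.0572 from limma). It was 31.7 ± 1.22 CPM in the triple knockout (adjusted p = 0.134 from limma) and 43.8 ± 36.4 CPM in *ALG6-/-* cells, which were not edited in it but whose replicate 2, at 13.1 CPM, lay below every library edited in *UGGT1*. *UGGT2* mRNA did not differ from WT cells in either line edited in *UGGT2* (adjusted p = 0.547 and 0.403 from limma), which says nothing about the protein. Of 6 genes typical of HEK293 cells, 5 were detected in every library (*NEFL* at 53.2 to 106 CPM, *KRT8* at 200.1 to 401 CPM), and *NEFM* stayed at or below 0.551 CPM. Of the markers of blood, liver, endothelial and connective tissue cells given here, 8 stayed at or below 0.414 CPM and *COL1A1* lay between 36.8 and 76.2 CPM. WT replicate 3 and *ALG6-/-* replicate 2 stood apart from their own lines, and the median ratio of a library's genes to the other libraries was 0.949 in the first (1.13 and 1.15 in the other WT libraries) and 0.672 in the second (0.793 and 0.915 in the other *ALG6-/-* libraries). They were not the only ones. Replicate 1 was at 1.04 in *ALG6/UGGT1-/-* (others 1.17 and 1.17) and at 1.00 in *ALG6/UGGT2-/-* cells (others 1.12 and 1.14). Their deviations from the line mean correlated with those of WT replicate 3 (Pearson r = 0.80 and 0.75). Both stayed in when WT replicate 3 and *ALG6-/-* replicate 2 were left out together. Calls of the 9 genes against WT and *ALG6-/-* cells that changed without both libraries are given beside the main values.

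Over all 14692 genes tested, the median log2 difference between *ALG6-/-* and WT cells was -0.44. Against *ALG6-/-* cells it was 0.52 for *ALG6/UGGT1-/-*, 0.46 for *ALG6/UGGT2-/-* and 0.36 for the triple knockout, and between -0.03 and 0.07 in the other 3 lines against WT cells. The *ALG6-/-* line thus carried the shift. CPM shares a fixed total among all genes, so a larger share for some mRNAs means a smaller one for others, and changes that involve *ALG6-/-* cells are given both as measured and relative to this median. Fold changes also went with gene length and GC content, and not only where *ALG6-/-* cells were compared. Across 13348 genes with a GENCODE 44 transcript, the Spearman rho was -0.29 with length and 0.42 with GC content in *ALG6-/-* against WT cells. Against WT cells it was 0.24 and -0.42 in *ALG6/UGGT1-/-*, 0.20 and -0.29 in *ALG6/UGGT2-/-*, and 0.19 and -0.06 in the triple knockout. The median gene tested was 2723 bases long with 49.6% GC. *EEF2* is 3158 bases long with 59.9% GC, *EEF1D* 1132 bases with 60.6%, *EEF1G* 1446 bases with 54.5%, *EIF4A1* 1645 bases with 49.9%, *EIF4B* 1985 bases with 48.8%, *EEF1B2* 844 bases with 48.7%, *EEF1A1* 1966 bases with 45.8%, *PABPC1* 2819 bases with 45.0% and *TPT1* 1055 bases with 43.8% (medians over each gene's transcripts).

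The 9 genes together took 3.23 ± 0.329% (SD, n = 3) of all CPM in WT cells, 4.13 ± 0.0438% in *ALG6-/-*, 2.43 ± 0.282% in *ALG6/UGGT1-/-*, 3.20 ± 0.183% in *ALG6/UGGT2-/-* and 3.63 ± 0.0954% in *ALG6/UGGT1/UGGT2-/-* cells. The 3 *ALG6-/-* libraries (4.09 to 4.17%) lay above all others, and the 3 *ALG6/UGGT1-/-* libraries (2.23 to 2.75%) below all others. *EEF1A1* and *EEF2* made up most of these shares, and the other 7 genes together held 0.692 ± 0.0493% in WT and 0.890 ± 0.0140% in *ALG6-/-* cells. The 79 cytosolic ribosomal protein genes took 11.5 ± 1.84% in WT, 14.2 ± 0.997% in *ALG6-/-*, 9.73 ± 0.976% in *ALG6/UGGT1-/-*, 10.2 ± 0.660% in *ALG6/UGGT2-/-* and 11.4 ± 0.259% in *ALG6/UGGT1/UGGT2-/-* cells. In bulk RNA, fewer cells that express a gene and less of its mRNA per cell cannot be told apart.

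**Figure D1:**
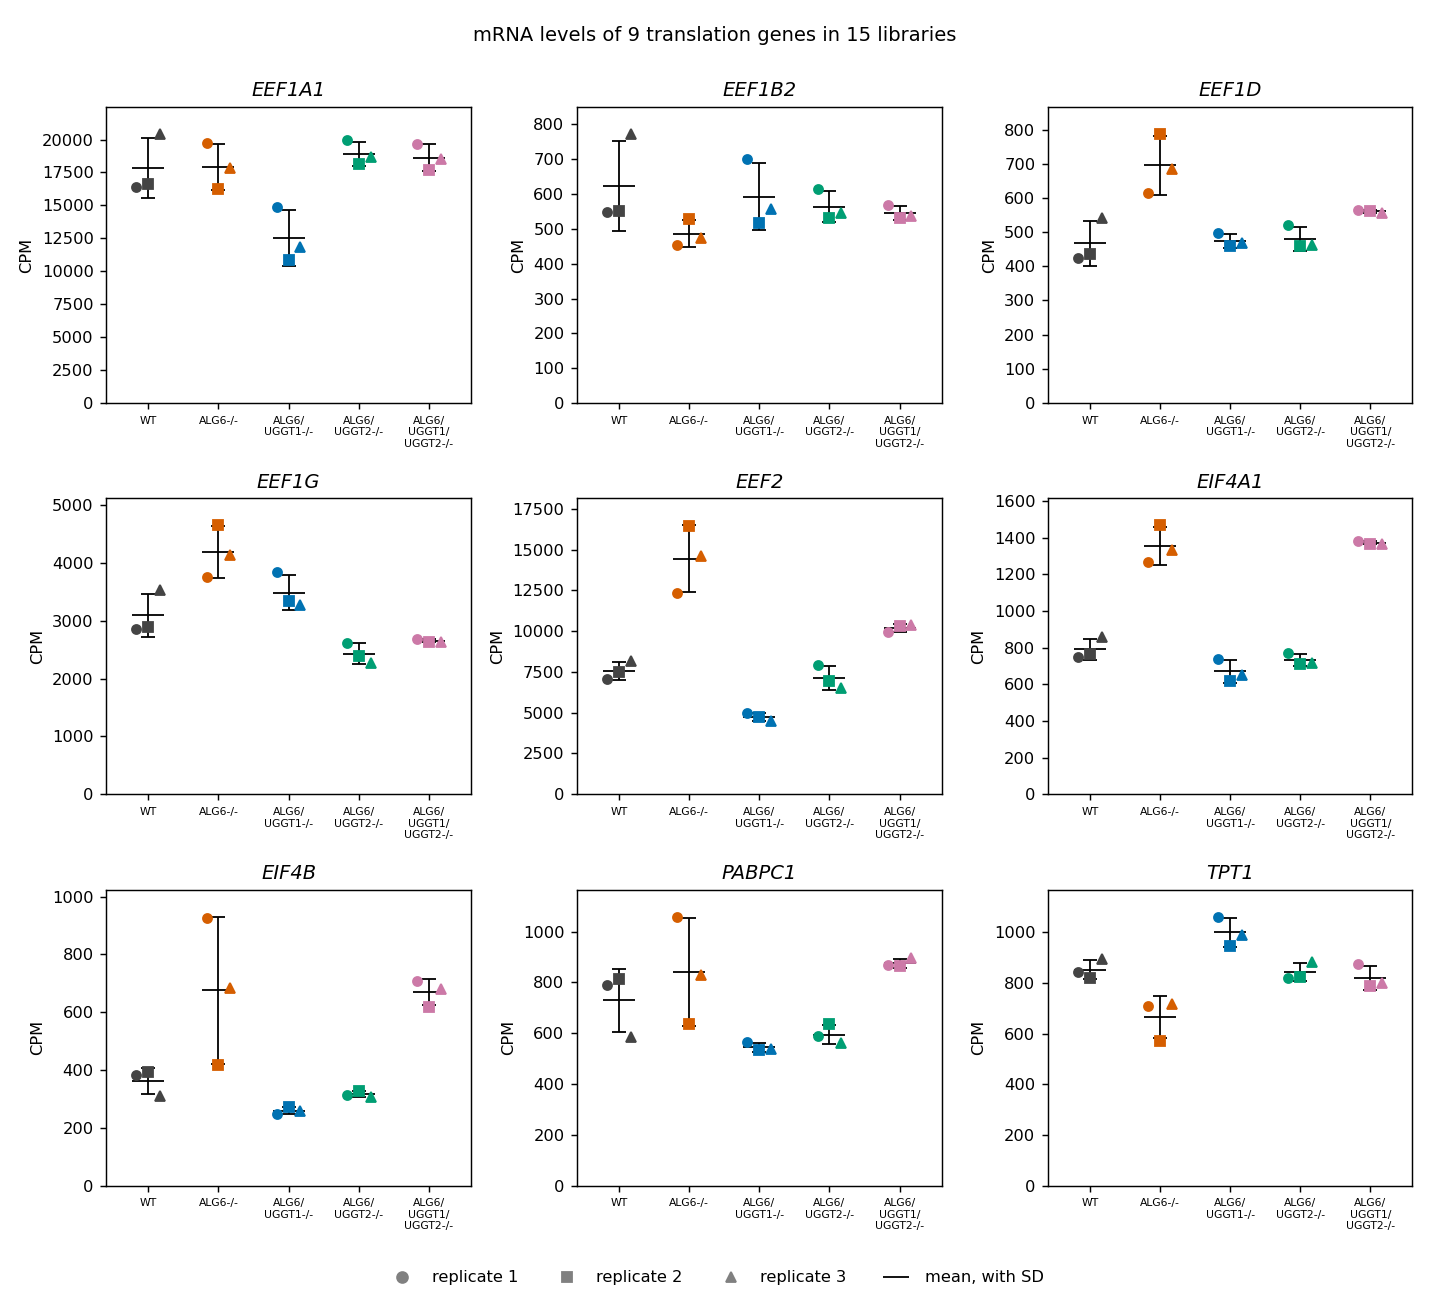
Levels of the 9 genes in CPM (vertical axes, from 0) in the 5 cell lines. Points are the 3 biological replicates of a line, and the bar is their mean with the SD. *EEF2* and *EIF4A1* are high in *ALG6-/-* and *ALG6/UGGT1/UGGT2-/-* cells, *TPT1* is lowest in *ALG6-/-* cells, and *EIF4B* spreads from 416 to 926 CPM among the *ALG6-/-* libraries.

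*EEF2*, the translocation factor, was at 7050, 7465 and 8173 CPM in the WT replicates, 12331, 16420 and 14581 CPM in *ALG6-/-*, 4976, 4727 and 4482 CPM in *ALG6/UGGT1-/-*, 7936, 6921 and 6537 CPM in *ALG6/UGGT2-/-*, and 9918, 10332 and 10357 CPM in the triple knockout. The lines ran from *ALG6/UGGT1-/-* (lowest) through *ALG6/UGGT2-/-*, WT and the triple knockout to *ALG6-/-* (highest), and of the neighbours in this order only *ALG6/UGGT2-/-* and WT overlapped.

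*EEF1A1*, the tRNA carrier, was at 16406, 16645 and 20423 CPM in WT, 19745, 16259 and 17813 CPM in *ALG6-/-*, 14890, 10864 and 11830 CPM in *ALG6/UGGT1-/-*, 19946, 18156 and 18670 CPM in *ALG6/UGGT2-/-*, and 19691, 17651 and 18509 CPM in the triple knockout. Only *ALG6/UGGT1-/-* cells stood apart, with all 3 replicates below every other library. The paralog *EEF1A2*, whose coding sequence is close to that of *EEF1A1* so that reads may be split between them, was at 555 to 798 CPM over the 15 libraries.

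The 3 genes of the exchange complex differed in the order of the lines. *EEF1G* was at 2854, 2899 and 3526 CPM in WT, 3762, 4654 and 4140 CPM in *ALG6-/-*, 3838, 3350 and 3276 CPM in *ALG6/UGGT1-/-*, 2625, 2392 and 2274 CPM in *ALG6/UGGT2-/-*, and 2685, 2642 and 2636 CPM in the triple knockout. Both lines without UGGT2 lay below every other library for this gene.

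*EEF1D* was at 423, 436 and 543 CPM in WT, 616, 788 and 686 CPM in *ALG6-/-*, 497, 459 and 468 CPM in *ALG6/UGGT1-/-*, 520.4, 459 and 462 CPM in *ALG6/UGGT2-/-*, and 564, 562 and 556 CPM in the triple knockout. The *ALG6-/-* replicates were the 3 highest, the triple knockout replicates came next, and the other lines overlapped.

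*EEF1B2* was at 548, 551 and 773 CPM in WT, 453, 528 and 475 CPM in *ALG6-/-*, 700.1, 518 and 559 CPM in *ALG6/UGGT1-/-*, 614, 529.9 and 546 CPM in *ALG6/UGGT2-/-*, and 570.0, 532 and 538 CPM in the triple knockout. WT replicate 3 was the highest library, and *ALG6-/-* replicate 2 was the only *ALG6-/-* library that reached the range of *ALG6/UGGT1-/-* cells.

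*EIF4A1*, the RNA helicase, was at 749, 767 and 855 CPM in WT, 1265, 1468 and 1334 CPM in *ALG6-/-*, 737, 619 and 653 CPM in *ALG6/UGGT1-/-*, 769.6, 710.3 and 716 CPM in *ALG6/UGGT2-/-*, and 1382, 1366 and 1367 CPM in the triple knockout. *ALG6-/-* and *ALG6/UGGT1/UGGT2-/-* cells overlapped each other and lay above all 9 libraries of the other lines. A separate row for the readthrough transcript *SENP3-EIF4A1*, which shares exons with *EIF4A1*, held 6.17 to 18.4 CPM.

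*EIF4B*, the helper of the helicase, was at 383, 392 and 308 CPM in WT, 926, 416 and 684 CPM in *ALG6-/-*, 249, 272 and 258 CPM in *ALG6/UGGT1-/-*, 314, 328 and 307 CPM in *ALG6/UGGT2-/-*, and 706, 618 and 681 CPM in the triple knockout. Replicate 2 of *ALG6-/-* cells lay just above the highest WT library, and the replicates of this line had a coefficient of variation of 37.8%.

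*PABPC1* was at 789, 813 and 586 CPM in WT, 1059, 635 and 830.0 CPM in *ALG6-/-*, 566, 532 and 537 CPM in *ALG6/UGGT1-/-*, 588, 635 and 561 CPM in *ALG6/UGGT2-/-*, and 868, 863 and 896 CPM in the triple knockout. *ALG6-/-* cells overlapped WT cells and the triple knockout, and *ALG6/UGGT1-/-* cells lay below all WT libraries. *PABPC3*, a related gene without introns, stayed at or below 1.12 CPM.

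*TPT1* had another order of the lines. It was at 842, 820.1 and 893 CPM in WT, 707, 572 and 717 CPM in *ALG6-/-*, 1062, 947 and 989 CPM in *ALG6/UGGT1-/-*, 819.6, 824 and 882 CPM in *ALG6/UGGT2-/-*, and 872, 786 and 798 CPM in the triple knockout. The *ALG6-/-* replicates were the lowest and the *ALG6/UGGT1-/-* replicates the highest of all 15, and the 3 other lines overlapped.

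The first comparison set the line edited in *ALG6* alone against WT cells. The other knockout lines also lack ALG6, and their values against WT cells, which differ from these, follow below. In *ALG6-/-* against WT cells, 5 of the 9 genes rose and 2 fell (limma on log2(CPM + 0.5), adjusted p under 0.05), where 60.8% of all genes tested changed, 15.1% upwards and 45.7% downwards. On the log2 scale *EEF2* rose by 0.93 (standard error 0.10, adjusted p = 8.77e-06), *EIF4B* by 0.84 (standard error 0.21, adjusted p = 0.00448), *EIF4A1* by 0.78 (standard error 0.08, adjusted p = 3.91e-06), *EEF1D* by 0.58 (adjusted p = 0.000423) and *EEF1G* by 0.44 (adjusted p = 0.00233). Relative to the median of all genes these were 1.36, 1.27, 1.22, 1.01 and 0.88. *TPT1* fell by 0.36 (adjusted p = 0.00284) and *EEF1B2* fell by 0.35 (adjusted p = 0.0441), but relative to the median they were at 0.08 and 0.09. *EEF1A1* was at 0.01 (standard error 0.12, adjusted p = 0.934) and *PABPC1* at 0.19 (adjusted p = 0.303), or 0.45 and 0.63 relative to the median. The replicates did not overlap for 7 of the 9 genes, against 53.1% of all genes tested.

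The 4 largest rises, of *EEF2*, *EIF4B*, *EIF4A1* and *EEF1D*, held under median ratio rescaling (1.38, 1.28, 1.23 and 1.02 in that order), under quantile normalization (0.67, 0.68, 0.49 and 0.41) and under a correction for length and GC content (1.08, 1.22, 1.08 and 0.54), with adjusted p under 0.05 each time. In a fit restricted to the libraries of both lines *EIF4B* had an adjusted p of 0.0645. *EEF1G* was at 0.10 under quantile normalization (adjusted p = 0.0917). The falls depended on the scaling: median ratio rescaling put *TPT1* at 0.09 and *EEF1B2* at 0.10, and the length and GC correction put *TPT1* at 0.13. *PABPC1* rose under median ratio rescaling (0.64) and under the correction (0.81), and *EEF1A1* rose under the correction (0.54). Without WT replicate 3 and *ALG6-/-* replicate 2, *EIF4B* was at 1.04, *EEF2* at 0.89 and *TPT1* at -0.22, all 3 past the threshold, and *EEF1B2* was at -0.24 and was not (-0.18 without WT replicate 3 alone). The call of *EEF1B2* held in 10 of 26 alternatives.

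**Figure D2:**
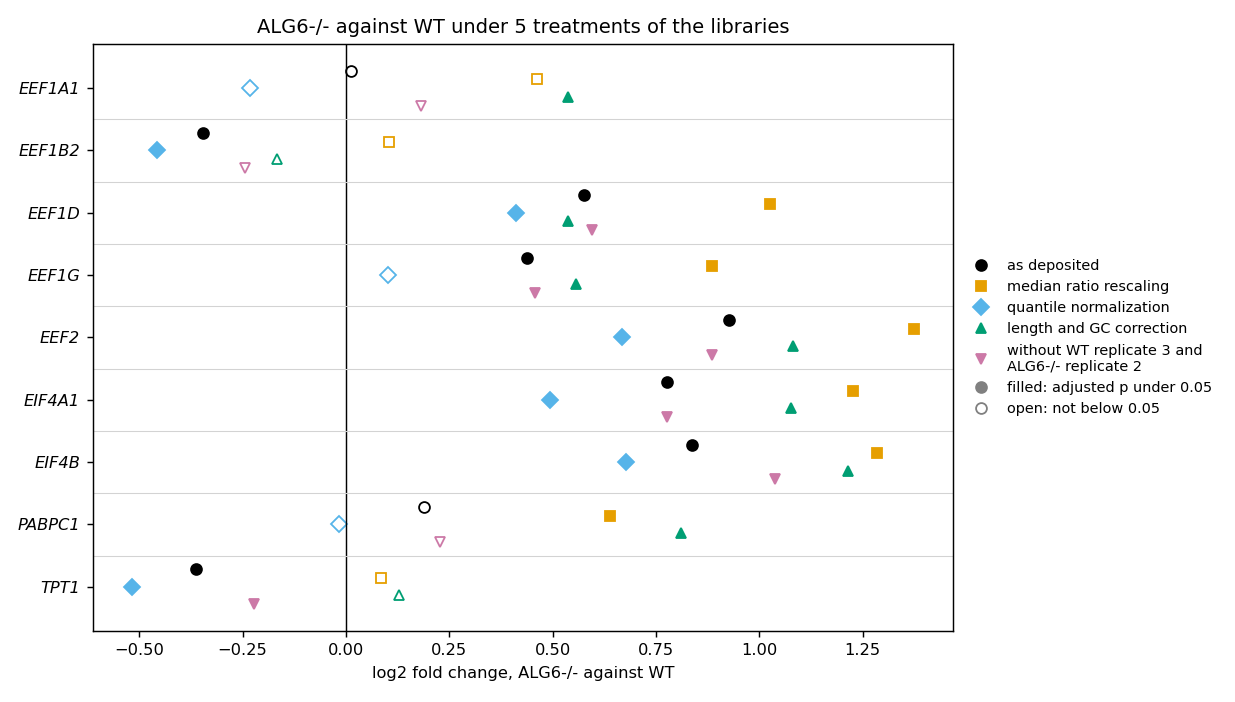
Log2 fold change of each gene in *ALG6-/-* against WT cells (horizontal axis) as deposited, under median ratio rescaling, quantile normalization and a length and GC correction, and without the 2 libraries that stood apart. Filled markers have an adjusted p under 0.05. *EEF2*, *EIF4A1*, *EIF4B* and *EEF1D* stay above 0 and filled in all 5, while *TPT1*, *EEF1B2*, *EEF1A1* and *PABPC1* cross 0. *EEF1G* stays above 0 but is open under quantile normalization.

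In *ALG6/UGGT1-/-* against WT cells, 3 of the 9 genes fell and none rose, where 24.1% of all genes changed, 10.3% upwards and 13.8% downwards. *EEF2* fell by 0.68 on the log2 scale (standard error 0.10, adjusted p = 0.000438), *EEF1A1* fell by 0.51 (standard error 0.12, adjusted p = 0.00734) and *EIF4A1* fell by 0.24 (standard error 0.08, adjusted p = 0.0386). *EIF4B* at -0.47 (adjusted p = 0.13) and *PABPC1* at -0.41 (adjusted p = 0.0819) did not pass. *TPT1* was at 0.23 (adjusted p = 0.0686). Replicates did not overlap for 6 of the 9 genes, against 39.7% of all genes. *EEF2* passed under each alternative, while *EEF1A1* did not under median ratio rescaling (-0.58, adjusted p = 0.0653), quantile normalization (-0.46, adjusted p = 0.0667) or a fit restricted to these lines (adjusted p = 0.069). The call of *EIF4A1* held in only 9 of 26 alternatives, and was lost for instance under median ratio rescaling (adjusted p = 0.27), under the length and GC correction (adjusted p = 0.104) and in the restricted fit (adjusted p = 0.136). In limma after that correction *EEF1G* (0.26, adjusted p = 0.0051) and *EEF1D* (0.16, adjusted p = 0.0177) rose. *EIF4B* (-0.50, adjusted p = 0.00942) and *PABPC1* (-0.57, adjusted p = 0.00107) fell there. Quantile normalization gave rises of *EEF1G* (0.33, adjusted p = 0.000243) and *TPT1* (0.30, adjusted p = 0.0157). Without the 2 libraries that stood apart 6 of the 9 passed, namely *EEF2*, *EEF1A1*, *EIF4B* (-0.58), *PABPC1* (-0.56), *TPT1* (0.26) and *EEF1G* (0.27), and *EIF4A1* did not (-0.18, adjusted p = 0.0758).

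In *ALG6/UGGT2-/-* against WT cells 1 of the 9 genes fell and none rose, where 13.9% of all genes changed, 6.14% upwards and 7.75% downwards. This was *EEF1G*, which fell by 0.34 (standard error 0.10, adjusted p = 0.0371), and it passed no longer under median ratio rescaling (adjusted p = 0.383) or in 8 of the 15 fits that left out 1 library. Without the 2 libraries that stood apart *EEF1G* did not pass (-0.25, adjusted p = 0.0546) and *PABPC1* did (-0.43, adjusted p = 0.007). In limma after the length and GC correction *EEF1D* rose (0.19, adjusted p = 0.0106) and *PABPC1* fell (-0.37, adjusted p = 0.0225). *EEF1G* was also the 1 gene of the 9 whose replicates did not overlap, against 31.5% of all genes. The other 8 genes lay between -0.28 (*PABPC1*) and 0.09 (*EEF1A1*), with standard errors of 0.08 to 0.21.

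In *ALG6/UGGT1/UGGT2-/-* against WT cells 3 of the 9 genes rose and none fell, where 35.6% of all genes changed, 13.5% upwards and 22% downwards. *EIF4B* rose by 0.89 (standard error 0.21, adjusted p = 0.00481), *EIF4A1* by 0.80 (standard error 0.08, adjusted p = 7.24e-06) and *EEF2* by 0.43 (standard error 0.10, adjusted p = 0.00456). *EEF1D* at 0.27 (adjusted p = 0.056), *PABPC1* at 0.28 (adjusted p = 0.202) and *EEF1G* at -0.21 (adjusted p = 0.118) did not pass. Replicates did not overlap for 6 of the 9 genes, against 54.6% of all genes. Under median ratio rescaling *EEF2* was at 0.50 and did not pass (adjusted p = 0.0964). In limma after quantile normalization *EEF1G* fell (-0.18, adjusted p = 0.00849) and *EEF1D* rose (0.23, adjusted p = 0.0281). The length and GC correction put *EEF1D* at 0.49 (adjusted p = 2.42e-06). Without the 2 libraries that stood apart *EEF1D* rose by 0.38 (adjusted p = 0.000995).

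**Figure D3:**
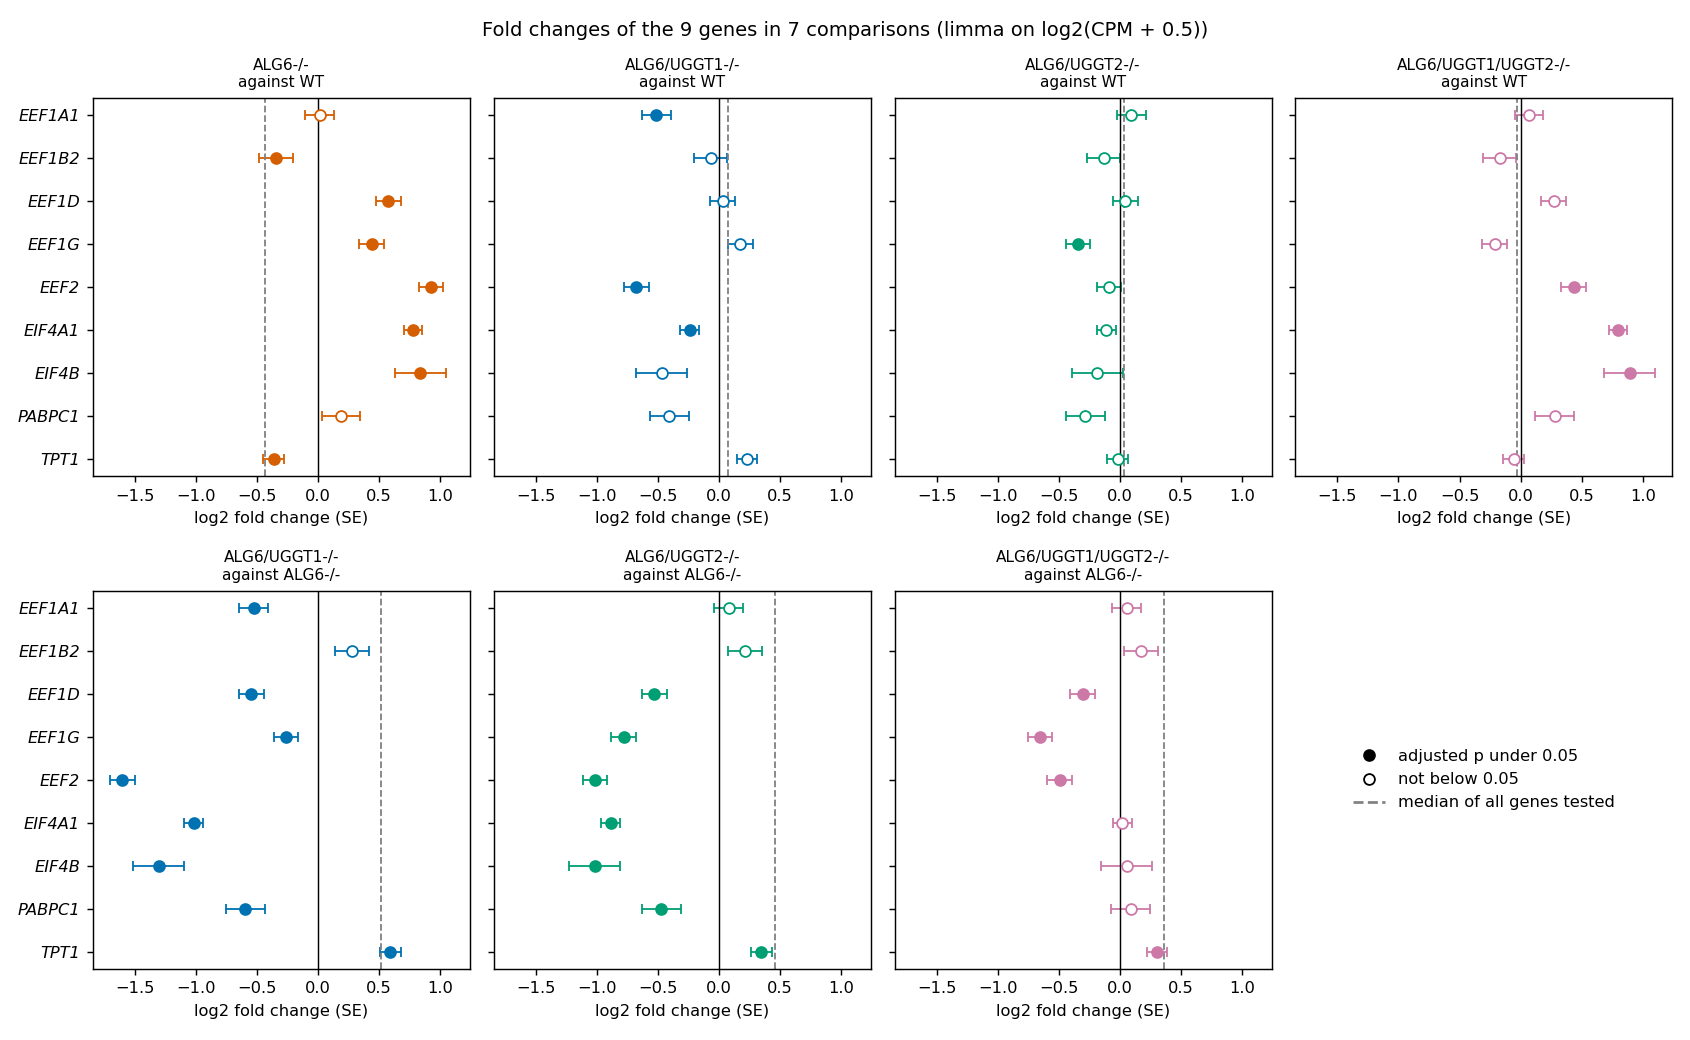
Log2 fold changes (horizontal axes, with standard errors) of the 9 genes in 4 comparisons with WT cells (top) and 3 with *ALG6-/-* cells (bottom). Filled points have an adjusted p under 0.05, and the dashed line is the median of all genes tested. Against *ALG6-/-* cells the dashed line lies at 0.36 to 0.52, and *EEF2* lies at -1.60, -1.01 and -0.49.

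Comparisons with *ALG6-/-* cells set the lines that also lack a UGGT against the line edited in *ALG6* alone. They share the *ALG6-/-* libraries with each other and with the first comparison, so they are not independent of it. In *ALG6/UGGT1-/-* against *ALG6-/-* cells 7 of the 9 genes fell and 1 rose, where 73.5% of all genes changed, 53.1% upwards and 20.4% downwards, and replicates did not overlap for 7 of the 9 genes against 69% of all genes. *EEF2* fell by 1.60 (standard error 0.10, adjusted p = 4.5e-08), *EIF4B* fell by 1.30 (adjusted p = 0.000133), *EIF4A1* fell by 1.02 (adjusted p = 2.07e-07), *PABPC1* fell by 0.60 (adjusted p = 0.00454), *EEF1D* fell by 0.55 (adjusted p = 0.00043), *EEF1A1* fell by 0.53 (adjusted p = 0.00164) and *EEF1G* fell by 0.26 (adjusted p = 0.0303). Relative to the median of all genes these 7 were at -2.12, -1.82, -1.54, -1.11, -1.07, -1.05 and -0.78 in that order. Quantile normalization placed *EEF1A1* at -0.23 (adjusted p = 0.257) and turned *EEF1G* to 0.23, past the threshold in the other direction (adjusted p = 0.000815). *EEF1G* also did not pass with no filter (adjusted p = 0.0607), in a fit restricted to these lines (adjusted p = 0.0736), in 4 of the 15 fits that left out 1 library (-0.27 to -0.18) or without the 2 libraries that stood apart (-0.18, adjusted p = 0.0583). *EEF1B2*, which had not passed, rose by 0.34 without those 2 libraries (adjusted p = 0.0153). *TPT1* rose by 0.59 (adjusted p = 5.08e-05), which was 0.07 above the all-gene median, and the length and GC correction placed it at -0.05.

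In *ALG6/UGGT2-/-* against *ALG6-/-* cells 6 of the 9 genes fell and 1 rose, where 67.4% of all genes changed, 48.6% upwards and 18.8% downwards, and replicates did not overlap for 8 of the 9 genes against 64.9% of all genes. *EIF4B* was at -1.02 (adjusted p = 0.000989), *EEF2* at -1.01 (adjusted p = 2.81e-06), *EIF4A1* at -0.89 (adjusted p = 8.56e-07), *EEF1G* at -0.78 (adjusted p = 2.17e-05), *EEF1D* at -0.53 (adjusted p = 0.000617) and *PABPC1* at -0.47 (adjusted p = 0.0184). Relative to the median of all genes these 6 were at -1.48, -1.47, -1.34, -1.24, -0.99 and -0.93 in that order. *PABPC1* did not pass under quantile normalization (-0.28, adjusted p = 0.144) or without *ALG6-/-* replicate 1 (-0.29). *TPT1* rose by 0.35 (adjusted p = 0.00315), or -0.11 relative to the median, and it was at -0.12 after median ratio rescaling. *EEF1A1* was at 0.08 (adjusted p = 0.559) and *EEF1B2* at 0.21 (adjusted p = 0.178), which became 0.28 (adjusted p = 0.0422) without the 2 libraries that stood apart. Relative to the median *EEF1A1* was at -0.38 and *EEF1B2* at -0.24.

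In *ALG6/UGGT1/UGGT2-/-* against *ALG6-/-* cells 3 of the 9 genes fell and 1 rose, where 61.2% of all genes changed, 43.5% upwards and 17.6% downwards, and replicates did not overlap for 5 of the 9 genes against 66.3% of all genes. *EEF1G* fell by 0.65 (adjusted p = 0.000165), *EEF2* fell by 0.49 (adjusted p = 0.0014) and *EEF1D* fell by 0.30 (adjusted p = 0.0218). These 3 were at -1.01, -0.85 and -0.66 relative to the median of all genes. *TPT1* rose by 0.31 (adjusted p = 0.00848), or -0.05 relative to the median, and was at -0.08 after median ratio rescaling. *EIF4A1*, *EIF4B*, *EEF1A1* and *PABPC1* lay between 0.02 and 0.09 with standard errors of 0.08 to 0.21. Relative to the median these 4 were at -0.34 to -0.27. Quantile normalization ended the falls of *EEF2* (-0.23, adjusted p = 0.152) and *EEF1D* (-0.18, adjusted p = 0.0623) and put *EIF4A1* at 0.24 (adjusted p = 0.00133), and the length and GC correction put *EEF1D* at -0.05 and *PABPC1* at -0.55 (adjusted p = 0.000601).

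Between the lines that lack a UGGT, *ALG6/UGGT1/UGGT2-/-* against *ALG6/UGGT1-/-* cells had 5 genes up and 2 down of the 9, where 46% of all genes changed, 19.2% upwards and 26.8% downwards, and replicates did not overlap for 8 of the 9 against 66.5% of all genes. *EIF4B* rose by 1.36 (adjusted p = 0.000168), *EEF2* by 1.11 (adjusted p = 2.15e-06), *EIF4A1* by 1.04 (adjusted p = 4e-07), *PABPC1* by 0.68 (adjusted p = 0.00315) and *EEF1A1* by 0.58 (adjusted p = 0.00138). *EEF1G* fell by 0.39 (adjusted p = 0.00594) and *TPT1* fell by 0.29 (adjusted p = 0.0141). Against *ALG6/UGGT2-/-* cells the same line had 4 genes up and none down, where 35.9% of all genes changed (14.2% upwards, 21.7% downwards) and replicates did not overlap for 6 of the 9 against 60.8% of all genes. These were *EIF4B* (1.08), *EIF4A1* (0.91), *PABPC1* (0.56) and *EEF2* (0.52). *ALG6/UGGT1-/-* against *ALG6/UGGT2-/-* cells had 1 gene up, *EEF1G* at 0.52 (adjusted p = 0.00206), and 2 down, *EEF1A1* at -0.61 (adjusted p = 0.00242) and *EEF2* at -0.59 (adjusted p = 0.001), where 23.7% of all genes changed (11% upwards, 12.7% downwards), and replicates did not overlap for 5 of the 9 against 41.7% of all genes. In this last comparison only 1 of the 9 genes passed under median ratio rescaling.

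Both comparisons whose lines differ in genotype only by UGGT2, though also by clone, were set side by side. Of the 9 genes 5 changed in opposite directions, as did 26.9% of all genes tested. For 4 of the 5 the level was lower with UGGT1 and higher without it, a pattern that 9.13% of all genes had. *EEF2* was lower by 1.01 on the log2 scale without UGGT2 where UGGT1 was present and higher by 1.11 where UGGT1 was absent, and the values were -0.89 and 1.04 for *EIF4A1*, -1.02 and 1.36 for *EIF4B* and -0.47 and 0.68 for *PABPC1*. *TPT1* went the other way, at 0.35 and -0.29. The difference between both effects, a comparison added after the values were seen, was tested in the same limma fit. It was higher without UGGT1 for 7 of the 9 genes and lower for *TPT1*, where 66.9% of all genes differed (20.3% higher, 46.6% lower) and the median of all genes was -0.60. It was 2.38 for *EIF4B* (standard error 0.30, adjusted p = 1.58e-05), 2.12 for *EEF2* (standard error 0.14, adjusted p = 7.4e-08), 1.92 for *EIF4A1* (standard error 0.11, adjusted p = 1.84e-08) and 1.16 for *PABPC1* (standard error 0.22, adjusted p = 0.000571). *EEF1B2* was at -0.32 (adjusted p = 0.159, and -0.38 with adjusted p = 0.0357 without the 2 libraries that stood apart), and *TPT1* at -0.63 was at -0.04 after median ratio rescaling (adjusted p = 0.859). The difference of *EEF1G*, at 0.39, turned to -0.24 under quantile normalization (adjusted p = 0.00646).

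**Figure D4:**
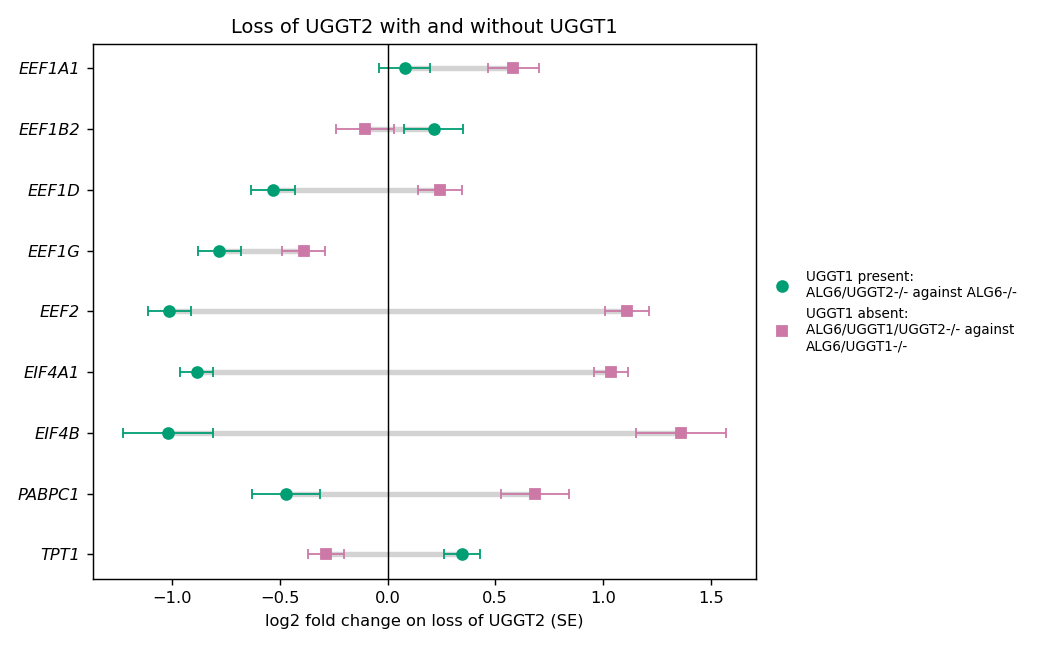
Log2 fold change on loss of UGGT2 (horizontal axis, with standard errors) where UGGT1 is present (circles) and where it is absent (squares). *EEF2*, *EIF4A1*, *EIF4B*, *EEF1D* and *PABPC1* lie left of 0 with UGGT1 and right of 0 without it, and *TPT1* and *EEF1B2* lie the other way round.

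The ratio of 1 gene to another within a library stays the same when that library is multiplied by a single factor, as in median ratio rescaling, but not under quantile normalization or the length and GC correction. The log2 ratio of *EEF1B2* to *EEF1D*, partners in the exchange complex, was 0.37, 0.34 and 0.51 in the WT replicates and -0.44, -0.58 and -0.53 in *ALG6-/-* cells. It was 0.49, 0.17 and 0.26 in *ALG6/UGGT1-/-*, 0.24, 0.21 and 0.24 in *ALG6/UGGT2-/-* and 0.01, -0.08 and -0.05 in *ALG6/UGGT1/UGGT2-/-* cells. The mean was thus lower than in WT cells by 0.92 in *ALG6-/-* and by 0.44 in the triple knockout, without overlap in either case. In *ALG6/UGGT2-/-* cells the mean difference from WT cells was -0.18, also without overlap. The log2 ratio of *EEF1B2* to *EEF1G* was -2.38, -2.39 and -2.19 in WT and -3.05, -3.14 and -3.12 in *ALG6-/-* cells, a mean difference of -0.78. With 3 replicates against 3 the exact two-sided permutation test cannot go below p = 0.1, which both ratios had in *ALG6-/-* cells (adjusted p = 0.163 over the 44 ratios computed), so neither could pass. Replicates of a knockout line and of WT cells did not overlap in 27 of these 44 ratios. For single genes this held for 31.5 to 54.6% of all genes tested, depending on the knockout line. No such share was computed for ratios of other genes, so the count is a description only.

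**Figure D5:**
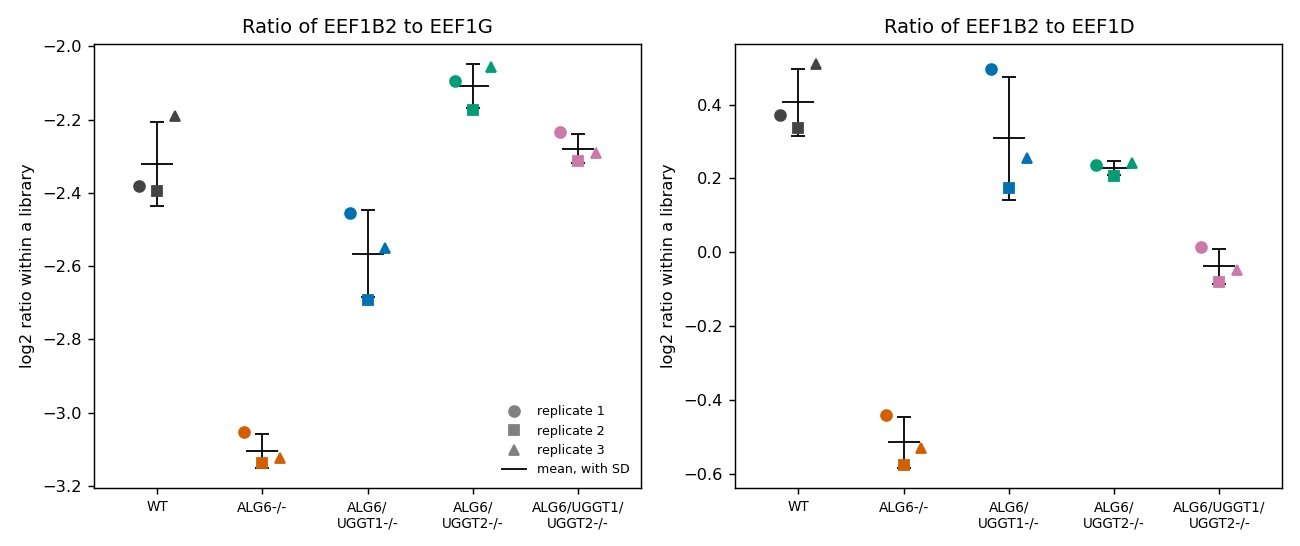
Log2 ratio within each library of *EEF1B2* to *EEF1G* (left) and to *EEF1D* (right). Points are the 3 replicates of a line, the bar is their mean with the SD, and the vertical axes do not start at 0. All 3 *ALG6-/-* libraries lie below every other library in both panels, at -3.14 to -3.05 and at -0.58 to -0.44.

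The remaining ratios set each gene against the median of the ribosomal protein genes, which encode the largest class of TOP mRNAs. The log2 ratio of *EEF2* was 2.66 ± 0.13 (SD, n = 3) in WT, 3.32 ± 0.08 in *ALG6-/-*, 2.20 ± 0.09 in *ALG6/UGGT1-/-*, 2.76 ± 0.09 in *ALG6/UGGT2-/-* and 3.09 ± 0.07 in *ALG6/UGGT1/UGGT2-/-* cells. Thus *EEF2* was higher relative to the ribosomal protein mRNAs in *ALG6-/-* than in WT libraries. That of *TPT1* was -0.49 ± 0.16 in WT, -1.11 ± 0.30 in *ALG6-/-* and -0.04 ± 0.04 in *ALG6/UGGT1-/-* cells, and its replicates in both knockout lines lay apart from those of WT cells (exact two-sided permutation p = 0.1 each). *EEF1A1*, *EIF4B* and *PABPC1* overlapped WT cells on this scale in *ALG6-/-* cells.

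Across the 15 libraries, which share 5 lines and are therefore not independent, log2 levels of *EIF4B* and *PABPC1* had a Pearson r of 0.93 and those of *EEF2* and *EIF4A1* one of 0.90, while *EEF2* and *TPT1* had -0.90. Of 11108 genes with a mean of at least 5 CPM, those most like *EEF1A1* were *ECI2* (r = 0.94), *RPS6* (0.92), *ACAA2* (0.92), *YBX3* (0.91) and *SEC11A* (0.90). *RPS6* encodes a protein of the small ribosomal subunit and YBX3 binds RNA, while the products of *ECI2* and *ACAA2* work in fatty acid oxidation. *RPS6* was at 1443 ± 215 CPM (SD, n = 3) in WT and 1080 ± 129 CPM in *ALG6/UGGT1-/-* cells. Most like the mean of the 9 genes were *SNHG6* (r = 0.97), a host of small nucleolar RNAs, *UQCRFS1* (0.96), *YBX1* (0.96), *RPS25* (0.95) and *SRP14* (0.95). *SNHG6* was at 39.8 ± 5.92 CPM in WT, 56.8 ± 3.95 CPM in *ALG6-/-*, 26.3 ± 5.54 CPM in *ALG6/UGGT1-/-* and 57.6 ± 3.09 CPM in *ALG6/UGGT1/UGGT2-/-* cells.

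Other genes of translation are given from lists of textbook members. Their counts in *ALG6-/-* against WT cells stand beside the 60.8% of all genes that changed there, 15.1% upwards and 45.7% downwards. In that comparison 40 of the 79 ribosomal protein genes rose and none fell, with a median log2 fold change of 0.28 beside -0.44 over all genes, and without the 2 libraries that stood apart 60 rose. Median ratio rescaling gave 67 up and none down and the length and GC correction 55 up and 1 down, but quantile normalization gave 20 up and 19 down, so the direction of the family depended on the scaling. *RPL15* rose by 0.84 (adjusted p = 1.41e-05), *RPL7A* by 0.83 (adjusted p = 2.38e-05) and *RPL28* by 0.58 (adjusted p = 3.7e-06). Against *ALG6-/-* cells 61 of the 79 fell in *ALG6/UGGT1-/-* (median -0.49), 64 fell in *ALG6/UGGT2-/-* (median -0.52) and 48 fell in *ALG6/UGGT1/UGGT2-/-* cells (median -0.31), while 1 rose in the last. Of all genes tested 20.4%, 18.8% and 17.6% fell in these comparisons, in that order. More of them fell than rose in these 3 comparisons under each scaling, with 38 down and 15 up, 40 down and 10 up, and 30 down and 9 up under quantile normalization. Against WT cells 24 fell and 1 rose in *ALG6/UGGT1-/-*, 9 fell in *ALG6/UGGT2-/-*, and 8 rose and 5 fell in the triple knockout. Of all genes tested 13.8% fell and 10.3% rose in the first, and 7.75% fell and 6.14% rose in the second. In the triple knockout 13.5% of all genes rose and 22% fell. Of 12 further TOP mRNAs that encode no ribosomal protein, 5 rose and 1 fell in *ALG6-/-* against WT cells (median 0.14), among them *VIM*, which encodes vimentin (0.86, adjusted p = 9.94e-08), and *RACK1*, a protein of the ribosome's small subunit surface (0.43, adjusted p = 0.000593, and 0.07 under quantile normalization).

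Of 8 termination and recycling factors 7 fell and 1 rose in *ALG6-/-* against WT cells (median -1.12), and 5 fell and 1 rose under each of the 3 other scalings. *ABCE1*, which splits ribosomes after termination, fell by 1.42 (adjusted p = 0.000496) and *ETF1*, which reads stop codons, fell by 1.26 (adjusted p = 0.00105), while *PELO*, which rescues stalled ribosomes, rose by 0.35 (adjusted p = 0.000333). Of 15 initiation factor genes outside eIF3 and the cap complex, 12 fell and none rose (median -0.69), against 5 down and 1 up after median ratio rescaling, with *EIF5*, which triggers GTP hydrolysis on eIF2, at -3.05 (adjusted p = 1.44e-05) and *EIF1B* at -1.07 (adjusted p = 2.34e-06). Of 16 genes for cap binding, eIF4F and poly(A) binding, 7 fell and 1 rose (median -0.44, as over all genes), which became 3 down and 4 up after median ratio rescaling and 4 down and 7 up under the length and GC correction. *PAIP2*, an inhibitor of PABPC1, fell by 0.81 (adjusted p = 3.64e-05), and was at -0.20 under the length and GC correction (adjusted p = 0.1). *EIF4EBP1*, the inhibitor of cap binding that mTORC1 switches off, fell by 0.60 (adjusted p = 0.000135), and was at -0.15 after median ratio rescaling (adjusted p = 0.521). The 14 eIF3 genes split, with 6 up and 2 down: *EIF3G* rose by 0.73 (adjusted p = 9.99e-06) and *EIF3C* by 0.90 (adjusted p = 3.33e-07), though *EIF3C* and its near copy *EIF3CL* cannot be told apart well by reads, and *EIF3J* fell by 1.39 (adjusted p = 1.96e-05).

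Among the 6 other cytosolic elongation factors 2 rose and 2 fell in *ALG6-/-* against WT cells. *EIF5A*, which helps the ribosome through proline stretches, rose by 0.36 (adjusted p = 0.0132), *EEF1A2* by 0.26 (adjusted p = 0.0289), and *EEFSEC*, which delivers selenocysteine, fell by 0.68 (adjusted p = 0.000344). Under quantile normalization *EIF5A* was at 0.04 (adjusted p = 0.574) and *EEF1A2* at 0.07 (adjusted p = 0.356), and under median ratio rescaling *EEFSEC* was at -0.24 (adjusted p = 0.357). Of the 4 mitochondrial elongation factors *TUFM* rose by 0.57 (adjusted p = 0.000552), *GFM1* fell by 1.19 (adjusted p = 0.00587) and *TSFM* fell by 0.42 (adjusted p = 0.00455), but *TSFM* was at 0.02 after median ratio rescaling and at -0.03 under quantile normalization. Of the 15 enzymes that modify elongation factors 7 fell and none rose (median -0.34), but the median of the list was above 0 under the 3 other scalings, with 2 or 3 down and 2 or 3 up. *EEF2KMT*, which methylates eEF2, was at 39.6 ± 1.08 CPM (SD, n = 3) in WT, 25.4 ± 2.26 CPM in *ALG6-/-* and 15.4 ± 0.837 CPM in *ALG6/UGGT1/UGGT2-/-* cells, *DPH1* and *DPH3*, which make the diphthamide residue of eEF2, fell by 0.69 and fell by 0.77 in *ALG6-/-* cells, and *EEF2K*, the kinase that inhibits eEF2, fell by 0.47 (adjusted p = 0.00898). The length and GC correction placed *DPH3* at 0.07 and *EEF2K* at 0.15, and median ratio rescaling placed *EEF2K* at -0.02, *EEF2KMT* at -0.19 and *DPH1* at -0.25, none of them past the threshold. Under quantile normalization *EEF2KMT* at -0.24 and *EEF2K* at -0.11 did not pass either. In the triple knockout against WT cells 9 of these 15 fell and none rose, where 22% of all genes fell and 13.5% rose. *EEF2KMT* was at -1.34 (adjusted p = 5.7e-07) and *EEF1AKMT4* at -0.99 (adjusted p = 2.22e-05).

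Of 20 genes that control TOP mRNAs through mTORC1 and LARP1, 12 fell and 2 rose in *ALG6-/-* against WT cells (median -0.61 beside -0.44 over all genes). Of all genes tested 45.7% fell and 15.1% rose there. After median ratio rescaling the 20 genes had 7 down and 7 up. *DDIT4* and *SESN2* encode stress-induced inhibitors of mTORC1. *DDIT4* was at 335, 369 and 374 CPM in WT, 79.3, 92.0 and 85.6 CPM in *ALG6-/-*, 171, 155 and 160.0 CPM in *ALG6/UGGT1-/-*, 332, 306 and 294 CPM in *ALG6/UGGT2-/-*, and 190.4, 178 and 179.9 CPM in the triple knockout. The log2 fold change against WT cells was -2.06 for *ALG6-/-* (adjusted p = 1.01e-09), -1.15 for *ALG6/UGGT1-/-* (adjusted p = 6.24e-07) and -0.97 for the triple knockout (adjusted p = 1.11e-06), and -0.21 for *ALG6/UGGT2-/-* cells, which did not pass (adjusted p = 0.0794). *SESN2* fell by 1.85 in *ALG6-/-* cells (adjusted p = 5.23e-08), and *RPTOR*, a subunit of mTORC1, fell from 187 ± 2.53 CPM in WT to 87.5 ± 10.9 CPM in *ALG6-/-* cells (SD, n = 3, adjusted p = 4.38e-07 from limma). *LARP1* was at -0.35 (adjusted p = 0.1), with 379, 375 and 234 CPM in the WT replicates and 314, 203 and 252 CPM in the *ALG6-/-* replicates, and the lowest value in each line was that of the library that stood apart. Without both libraries *LARP1* fell by 0.42 (adjusted p = 0.00405), while the length and GC correction placed it at 0.17 (adjusted p = 0.0231). No protein or translation rate was measured here, so these are levels of mRNA only.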

How the data were processed

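The authors made directional poly(A) libraries, sequenced them in 76-base pairs and deposited CPM values, for which their notes name STAR, RSEM, edgeR and hg38. Whether counting used strand is not given in the sources used here. The 15 columns combine the 4 technical samples of each library (60 samples). Of 42141 genes 15877 were at 0 throughout and 28 names had become dates. Another 8 columns without a header were not used. Only 89.1 to 90.6% of values were whole reads (tolerance 0.02), so no count test was run.

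Lines were compared with limma 3.58.1 (R 4.3.3) on log2(CPM + 0.5) in 1 fit over 15 libraries (trended variance, 10 residual degrees of freedom), for the 14692 genes that reached 1 CPM in 3 or more libraries, with Benjamini-Hochberg adjustment over all of them. The p-values measure only the spread between these replicates of 1 clone per genotype. The procedure was tested on simulated data without a shift over all genes, which says nothing about calls under the shift in *ALG6-/-* cells. Members, lists and comparisons were chosen with earlier results of these data known. Named genes are all members, up to 4 genes of each list with the smallest p in *ALG6-/-* against WT cells and up to 2 from another comparison, *EEF1A2*, *EEF2K*, *LARP1*, the edited genes and the 5 most like *EEF1A1* and the members' mean. Reads shared with processed pseudogenes could have been split by the authors' counting. Alternatives varied the pseudocount (0.1, 2), filter, scaling, variance trend, threshold (0.01), libraries, replicate block, and length and GC content (natural splines, 5 degrees of freedom, 90.9% of genes, GENCODE 44). Leaving out WT replicate 3 and *ALG6-/-* replicate 2 together was added after the values had been seen. The result for 1 marker gene is not reported here.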

Additional observations from a re-analysis of the deposited data

Results flagged for a closer look

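The effect of losing UGGT2 differed between cells with and without UGGT1 for 8 of the 9 genes, by a test of the difference itself in the limma fit, a comparison added after the values were seen. The difference (without minus with UGGT1, log2 scale) was 0.50 for *EEF1A1* (adjusted p = 0.0185), 0.77 for *EEF1D* (adjusted p = 0.000462), 0.39 for *EEF1G* (adjusted p = 0.0258), 2.12 for *EEF2*, 1.92 for *EIF4A1*, 2.38 for *EIF4B*, 1.16 for *PABPC1* and -0.63 for *TPT1* (adjusted p = 0.000497). The difference was higher for 7 of the 9 and lower for 1, where 20.3% of all genes were higher and 46.6% lower, with a median of -0.60. *EEF1G* fell on loss of UGGT2 in both backgrounds (-0.78 and -0.39), and its difference turned to -0.24 under quantile normalization (adjusted p = 0.00646) and did not pass with no filter (adjusted p = 0.0526) or in 5 of the 15 limma fits that left out 1 library. That of *EEF1A1* did not pass under quantile normalization (0.23, adjusted p = 0.432), with no filter (adjusted p = 0.0501) or without *ALG6/UGGT1-/-* replicate 2 (0.41, adjusted p = 0.0502). *ALG6-/-* cells enter only 1 of the 2 effects, and that line carried the shift in the median of all genes. Its part in the difference was not tested apart from the rescaled values. Each knockout line also grew from a single cell, so this difference cannot be told apart from differences between clones.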

How the results depend on the processing

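Pseudocounts of 0.1 and 2 and the stricter filter changed no call of a member in the 7 main comparisons. The number of members that changed in *ALG6/UGGT1-/-* against WT cells (3) became 6 under the length and GC correction and without the 2 libraries that stood apart. In *ALG6/UGGT2-/-* against WT cells (1) it became 0 with no filter, median ratio rescaling, a fit restricted to both lines, the replicate block, no variance trend or an adjusted p under 0.01, and 3 under the length and GC correction. In *ALG6/UGGT1/UGGT2-/-* against WT cells (3) quantile normalization gave 5. In *ALG6/UGGT1-/-* against *ALG6/UGGT2-/-* cells (3) median ratio rescaling gave 1, and a fit restricted to both lines and leaving out the 2 libraries gave 5 each. With single libraries left out the counts ranged from 2 to 6 in *ALG6/UGGT1-/-* and 0 to 1 in *ALG6/UGGT2-/-* against WT cells. Over all genes, calls went from 8930 to 5726 in *ALG6-/-* against WT cells in a fit restricted to both lines, from 3543 to 2275 in *ALG6/UGGT1-/-* against WT cells and from 3478 to 2298 in *ALG6/UGGT1-/-* against *ALG6/UGGT2-/-* cells by median ratio rescaling, and from 2041 to 1003, 925 and 3075 in *ALG6/UGGT2-/-* against WT cells by median ratio rescaling, that restricted fit and the length and GC correction. The causes were not tested.

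These log2 fold changes had the opposite sign to the reported one. Under median ratio rescaling they were 0.10 (*EEF1B2*) and 0.0856 (*TPT1*) in *ALG6-/-*, -0.0356 (*EEF1D*) in *ALG6/UGGT1-/-* and 0.0034 (*TPT1*) in *ALG6/UGGT1/UGGT2-/-* against WT cells. Against *ALG6-/-* cells they were -0.24 (*EEF1B2*) in *ALG6/UGGT1-/-*, -0.38 (*EEF1A1*), -0.25 (*EEF1B2*) and -0.12 (*TPT1*) in *ALG6/UGGT2-/-*, and -0.33 (*EEF1A1*), -0.21 (*EEF1B2*), -0.37 (*EIF4A1*), -0.33 (*EIF4B*), -0.30 (*PABPC1*) and -0.0822 (*TPT1*) in *ALG6/UGGT1/UGGT2-/-*, and the difference in the effect of UGGT2 loss was 0.27 for *EEF1B2*. Under the length and GC correction they were 0.13 and 0.0693 (*TPT1*) in *ALG6-/-* and *ALG6/UGGT1/UGGT2-/-* against WT cells, -0.0535 (*TPT1*) in *ALG6/UGGT1-/-*, -0.49 (*EEF1A1*) and -0.16 (*TPT1*) in *ALG6/UGGT2-/-*, and -0.41 (*EEF1A1*), -0.155 (*EIF4A1*), -0.25 (*EIF4B*), -0.55 (*PABPC1*) and -0.059 (*TPT1*) in *ALG6/UGGT1/UGGT2-/-* against *ALG6-/-* cells, and 0.16 for the difference of *TPT1*. Under quantile normalization they were -0.23 (*EEF1A1*) and -0.0161 (*PABPC1*) in *ALG6-/-* and 0.0006 (*TPT1*) in *ALG6/UGGT2-/-* against WT cells, 0.23 (*EEF1G*) in *ALG6/UGGT1-/-* against *ALG6-/-* cells and -0.24 for the difference of *EEF1G*. Without the 2 libraries they were 0.0962 and 0.0332 (*EEF1B2*) in *ALG6/UGGT1-/-* and *ALG6/UGGT2-/-*, 0.0182 (*TPT1*) in *ALG6/UGGT2-/-* against WT cells, and -0.012 (*EEF1A1*), -0.2537 (*EIF4B*) and -0.0986 (*PABPC1*) in *ALG6/UGGT1/UGGT2-/-* against *ALG6-/-* cells. Leaving out single libraries or these 2 turned the sign of values that had not passed. The ranges were -0.0594 to 0.1825 for *EEF1A1* in *ALG6-/-*, -0.1943 to 0.0962 (*EEF1B2*) and -0.0371 to 0.142 (*EEF1D*) in *ALG6/UGGT1-/-*, and -0.2146 to 0.0332 (*EEF1B2*), -0.0209 to 0.1581 (*EEF1D*) and -0.0506 to 0.0182 (*TPT1*) in *ALG6/UGGT2-/-* against WT cells. They were -0.012 to 0.1281 (*EEF1A1*), -0.0284 to 0.0785 (*EIF4A1*), -0.2537 to 0.3227 (*EIF4B*) and -0.0986 to 0.2704 (*PABPC1*) in *ALG6/UGGT1/UGGT2-/-* against *ALG6-/-* cells.

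Replicate numbers did not pair the libraries: deviations of same-numbered libraries correlated from -0.75 to 0.75 (median 0.04, 14 of 30 pairs over 0.1), and 5 of 15 libraries correlated best with their own number. With the replicate block the members that changed went from 1 to 0 in *ALG6/UGGT2-/-* against WT cells, and no other count moved by over 1.5 times. In limma with the block, *EEF1B2* in *ALG6-/-* (adjusted p = 0.0607), *EIF4A1* in *ALG6/UGGT1-/-* (0.0693) and *EEF1G* in *ALG6/UGGT2-/-* (0.0734) against WT cells and *EEF1G* in *ALG6/UGGT1-/-* against *ALG6-/-* cells (0.0523) did not pass, and *TPT1* in *ALG6/UGGT1-/-* against WT cells did (0.0448). Summing each member with its pseudogenes was not run.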
